A study of Mus musculus with 6 samples.

Results

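The genes described here handle ATP and adenosine outside the cell, and were read in 6 RNA-seq libraries of mouse splenic regulatory T cells (Treg). They are Entpd1, Nt5e, Adora2a, Ada, Dpp4, P2rx7 and P2rx4, chosen by symbol from a table of 36811 genes. All 7 had a row in the table. Of the libraries, 3 are labelled cKO (genotype Bach2fl/fl Foxp3EGFP-Cre-ERT2) and 3 are labelled WT (genotype Bach2+/+ Foxp3EGFP-Cre-ERT2), from C57BL/6 mice aged 18 to 21 weeks. Both groups therefore carry EGFP and the tamoxifen-dependent Cre-ERT2 recombinase at Foxp3, the gene of the factor that defines Treg, and differ in whether Bach2, a transcriptional repressor, is floxed. A tamoxifen treatment is not given in the sources used here, and nothing in the labels says that replicates are different mice, so each p-value speaks only of spread among these libraries. The comparison is between Treg with floxed and with unfloxed Bach2, and whether Bach2 was lost in the libraries labelled cKO is not shown here.

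ATP that leaves stressed or activated cells is a danger signal, and adenosine made from it restrains T cells. CD39, the product of Entpd1, removes phosphates from ATP and ADP to give AMP, and CD73, the product of Nt5e, turns AMP into adenosine. Murine Treg are known for carrying both enzymes on their surface. Adenosine acts on the A2A receptor (Adora2a), which raises cAMP through a stimulatory G protein, and adenosine deaminase (Ada) removes it by conversion to inosine. CD26 (Dpp4) is a peptidase that anchors adenosine deaminase on human T cells. P2X7 (P2rx7) and P2X4 (P2rx4) are channels opened by ATP. P2X7 in mouse T cells can also be gated by NAD through the ectoenzyme ART2.2 (Art2b), and its activation can lead to shedding of surface proteins and death of Treg.

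Values are FPKM, fragments corrected for the length of the transcript and the depth of the library. Levels of different genes can be compared only roughly, because the annotation that gave the lengths is not stated. For Entpd1, for example, annotated coding transcripts range from 473 to 4221 bases. The scale from fragments to FPKM, estimated from the steps between low values, lay between about 3030000 and 5010000 fragments in the 6 libraries. The targeted gene, Bach2, showed no drop with the cKO label, at 7.88, 9.19 and 6.44 FPKM in replicates 1, 2 and 3 labelled cKO, against 3.29, 8.25 and 4.80 FPKM in replicates 1, 2 and 3 labelled WT. Since the floxed segment is not given here, whole-gene values cannot check the labels, on which every direction below depends. Of the 8 Treg and CD4 T cell markers examined, all were found in each library, with Foxp3 between 5.16 and 9.44 FPKM. Transcripts of other cells were present too. The summed FPKM of 5 B cell markers lay between 119 and 162 in the libraries labelled cKO and between 105 and 150 in those labelled WT. The sum of 10 myeloid markers, mostly S100a8, S100a9 and Cst3, was 1177 in cKO 2 and between 381 and 544 in the other libraries. All 7 tested myeloid markers had a log2 difference above 0, with a median of 0.55. So did all 8 Treg and CD4 T cell markers, with a median of 0.13, beside 55.0% of all genes tested. The myeloid marker Ly6g passed the filter of 1 FPKM only through cKO 1 and cKO 2, at 3.77 and 2.71 FPKM. In the other libraries it was listed at 0. Its direction was thus fixed by the filter, and its log2 difference of 1.38 is part of the myeloid median. Of the myeloid markers, Adgre1 had groups that did not overlap, higher at 2.08 to 3.32 against 1.66 to 2.05 FPKM. The same held for Cd14, below the filter, at 1.12 to 1.70 against 0 to 0.894 FPKM. The other myeloid markers overlapped between the groups. Among other markers the groups were also separate for Alas2 of red cells (log2 difference 1.25) and Fcer2a of B cells (0.75), both higher with the cKO label, and for Klrd1 of NK cells (-1.28), lower (limma, adjusted p = 0.915, 0.925 and 0.874). Klrd1 averaged 0.294 FPKM with the cKO label and 2.20 FPKM with the WT label. It passed the filter only through the libraries labelled WT, so its test and direction carry no weight. Of the 5 endothelial and stromal markers, Kdr and Pdpn were listed at 0 in each library, Cdh5 did not exceed 0.0617 FPKM and Col1a1 reached 3.16 FPKM. Pecam1, which T cells also express, was separate between the groups, at 44.9 to 48.5 FPKM with the cKO label against 50.9 to 65.2 FPKM. The part of these markers in the results below was not tested. In such bulk samples, fewer cells of a type and less RNA per cell cannot be told apart.

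Promoter sequence is shown for the adjacent pair of ATP-gated channels, because Bach2 with its small Maf partners binds AP-1 type elements and 1 of the pair has such a match. RefSeq (GRCm38.p6, while the deposited values came from an earlier build) gave 8 windows for 6 of the genes. Each window spans 250 bases before to 50 bases after a transcript start. Adora2a had no window, so its promoter was not searched. The letters TGANTCA, which read the same on both strands, were found in the upstream window of P2rx7 and in none of the other 7 windows. They were present in 7.81% of 32851 mouse promoter windows. The cAMP response element TGACGTCA, which also reads the same on both strands, occurred in none of the 8 windows, against 1.79% of all windows. In the sequences that follow, P2rx7 lies at chr5:122643677-122643976 and P2rx4 at chr5:122707294-122707593, both on the plus strand, and capitals mark the match.
P2rx7: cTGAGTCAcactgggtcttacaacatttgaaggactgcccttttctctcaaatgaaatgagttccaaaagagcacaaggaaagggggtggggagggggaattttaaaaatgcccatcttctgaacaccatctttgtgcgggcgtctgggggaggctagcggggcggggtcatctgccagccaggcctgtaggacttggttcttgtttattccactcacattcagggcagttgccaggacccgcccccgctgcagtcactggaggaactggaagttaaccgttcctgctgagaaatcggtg
P2rx4: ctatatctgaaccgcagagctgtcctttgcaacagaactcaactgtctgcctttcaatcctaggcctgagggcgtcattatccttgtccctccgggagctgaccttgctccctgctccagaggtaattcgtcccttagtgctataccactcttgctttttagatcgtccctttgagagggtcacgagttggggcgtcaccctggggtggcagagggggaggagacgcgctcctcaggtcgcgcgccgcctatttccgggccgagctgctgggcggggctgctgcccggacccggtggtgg
The match in P2rx7 spans bases 2 to 8 of the window, at its far upstream end. It is a match of letters only and does not show that a factor is bound there. RefSeq has another start for P2rx7, whose window held no match, and the FPKM of a gene adds up its transcripts.

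All 7 genes were measured in each library, the lowest value being 7.76 FPKM for Ada in cKO 1. Averaged over the 6 libraries, Nt5e stood at 64.8 ± 10.1 FPKM (SD, n = 6), P2rx7 at 61.8 ± 6.25, Dpp4 at 54.8 ± 9.26, Entpd1 at 35.3 ± 13.3, P2rx4 at 31.5 ± 6.86, Adora2a at 26.3 ± 4.93 and Ada at 11.3 ± 2.95 FPKM. Nt5e lay above 82.3% of the 11979 genes tested, and Ada, the lowest of the 7, above 45.1%. Neighbours in this order overlapped in their ranges, except that Adora2a lay above Ada in each of the 6 libraries without overlap. Nt5e exceeded P2rx7 in 5 of 6 libraries, P2rx7 exceeded Dpp4 in 4 and Entpd1 exceeded P2rx4 in 4. The FPKM of the AMP-cleaving enzyme was thus at least that of the ATP-cleaving enzyme, with Nt5e between 1.04 and 4.04 times Entpd1 within a library. The FPKM of the adenosine-producing Nt5e was 2.84 to 9.10 times that of the adenosine-removing Ada. Such ratios between genes are rough, as they depend on the transcript lengths used.

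No gene of the 7 passed the test between the groups. The test was limma on log2(FPKM + 1) over all 11979 genes averaging 1 FPKM or more, with Benjamini-Hochberg adjustment, and 3 of these genes passed an adjusted p of 0.05, a background of 0.0250%. Adora2a was the member whose groups did not overlap, and it was higher in the libraries labelled cKO. Groups failed to overlap upward in 6.96% of all genes tested, downward in 3.75% and in either direction in 10.7%, so 1 gene among 7 is close to this background. The log2 difference was above 0 in 6 of the 7 genes, with a median of 0.18. Over all genes tested it was above 0 in 55.0%, with a median of 0.03.

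**Figure D1:**
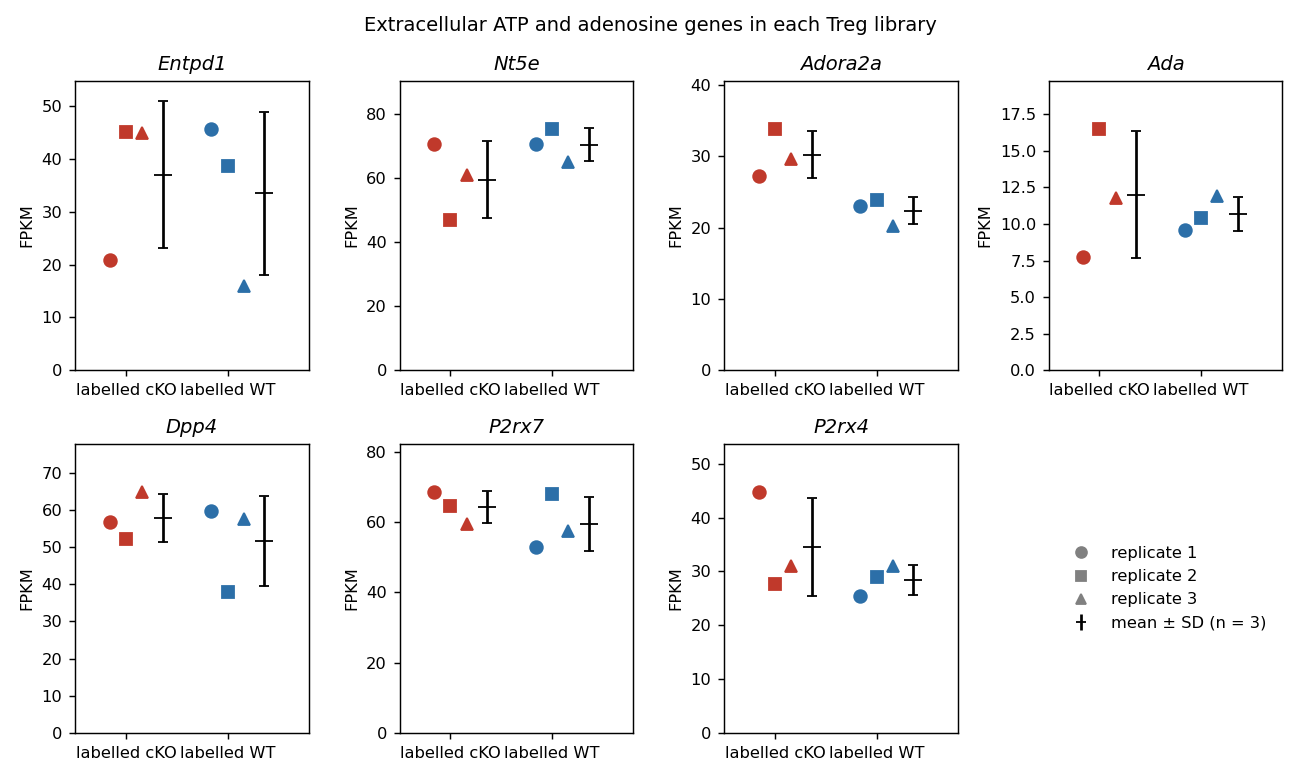
FPKM (vertical axes, from 0) of the 7 genes in each Treg library, in red for libraries labelled cKO and blue for those labelled WT, with the marker shape giving the replicate number and the black bar the mean ± SD (n = 3). Adora2a is the gene whose groups are separate, at 27.3 to 33.8 against 20.2 to 23.9 FPKM, and Entpd1 is low in cKO 1 and WT 3.

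Entpd1 (ENSMUSG00000048120), the ATP- and ADP-cleaving enzyme, varied more between libraries than between groups. It stood at 20.9, 45.2 and 45.0 FPKM in replicates 1, 2 and 3 labelled cKO, against 45.7, 38.8 and 16.05 FPKM in replicates 1, 2 and 3 labelled WT. One library of each label, cKO 1 and WT 3, lay far below the other four, and the groups overlapped fully. The means were 37.0 ± 13.96 and 33.5 ± 15.5 FPKM (SD, n = 3 each), and the fitted log2 difference was 0.19 ± 0.461 (SE), its 95% interval reaching from -0.92 to 1.29 (limma, adjusted p = 0.978). The difference was -0.26 without WT replicate 3 and 0.54 without cKO replicate 1, so its direction rests on single libraries. The highest value was 2.84 times the lowest, while this ratio had a median of 1.62 over 6894 genes averaging 10 FPKM or more. The residual SD of Entpd1 exceeded that of 93.2% of those genes. At most 268 fragments in WT 3 and 317 in cKO 1 lay behind its values by the estimated scale, against 496 to 955 in the other libraries. B cells, which the CD4 enrichment and the Treg sort should remove, also carry CD39. Their summed markers, mostly Cd79b, were lowest in the same pair of libraries, at 119 FPKM in cKO 1 and 105 FPKM in WT 3 against 141 to 162 in the other four. This held for 2 of the 5 markers (Cd79a and Cd79b). It did not hold for Ms4a1 and Cd22, at 10.6 and 6.94 FPKM in cKO 1, or for Fcer2a, lowest in WT 2 at 2.70 FPKM. The part of these markers in the Entpd1 values was not tested.

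The coding genes most like Entpd1 across the 6 libraries, by the root mean square difference of centred log2(FPKM + 1), were Slc7a4 (0.22) and Hspa2 (0.22), where the median over 10076 coding genes was 0.63. Both are low genes, Hspa2 between 0.885 and 2.94 FPKM and Slc7a4 between 0 and 2.61 FPKM. Hspa2, a member of the heat shock 70 family, was lowest in cKO 1 and next lowest in WT 3, at 1.01 FPKM.

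Nt5e (ENSMUSG00000032420), which makes adenosine from AMP, was the member with the lower mean in the libraries labelled cKO. It stood at 70.6, 46.8 and 60.9 FPKM in replicates 1, 2 and 3 labelled cKO, against 70.7, 75.1 and 64.9 FPKM in replicates 1, 2 and 3 labelled WT. The groups overlapped, as cKO 1 lay within the values labelled WT, and cKO 2 was the lowest library. The means were 59.5 ± 11.98 and 70.2 ± 5.14 FPKM (SD, n = 3 each), and the fitted log2 difference was -0.25 ± 0.177 (SE), its 95% interval reaching from -0.68 to 0.17 (limma, adjusted p = 0.925). Without cKO replicate 2, the library with the highest myeloid marker sum, the difference was -0.095. The part of the myeloid markers in the Nt5e values was not tested. At most 911 to 1275 fragments lay behind each value. Its nearest coding genes were Kmt2c, a histone methyltransferase, and Mtmr6, a phosphoinositide phosphatase, at root mean square differences of 0.016 and 0.022, where the median was 0.33.

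Adora2a (ENSMUSG00000020178), the receptor through which adenosine raises cAMP, showed the largest difference of the 7 genes. It stood at 27.3, 33.8 and 29.6 FPKM in replicates 1, 2 and 3 labelled cKO, against 23.0, 23.9 and 20.2 FPKM in replicates 1, 2 and 3 labelled WT. Each library labelled cKO lay above each library labelled WT, and the gap between cKO 1 and WT 2 was small. The means were 30.2 ± 3.31 and 22.4 ± 1.91 FPKM (SD, n = 3 each), a ratio of 1.35. The fitted log2 difference was 0.42 ± 0.148 (SE), its 95% interval reaching from 0.063 to 0.77. It did not pass over all genes tested (limma, unadjusted p = 0.0272, adjusted p = 0.915), where 3.59% of all genes were higher and 1.78% lower at an unadjusted p under 0.05. The difference stayed between 0.34 and 0.57 in the 16 alternatives, with adjusted p from 0.345 to 1. Its 95% interval included 0 in 5 of them, namely with the replicate block and without cKO replicate 2, cKO replicate 3, WT replicate 1 or WT replicate 3. Without WT replicate 3 and cKO replicate 2 in turn the difference was 0.35 and 0.34. At most 188 to 439 fragments lay behind each value. The residual SD was below that of most genes, exceeding 14.3% of those averaging 10 FPKM or more.

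The nearest coding genes to Adora2a were Nabp1, a single-stranded DNA-binding protein, and Gtf2b, a general transcription factor, at root mean square differences of 0.054 and 0.064 with a median of 0.34. Myeloid cells also express the A2A receptor. The myeloid marker sum was 544, 1177 and 390 FPKM in replicates 1, 2 and 3 labelled cKO. With the WT label it lay between 381 and 458 FPKM. Of the 10 myeloid markers, Adgre1 and Cd14 were higher in each library labelled cKO, and the others overlapped between the groups. S100a8 stood at 74.6 FPKM in cKO 3, below its values of 86.8 to 123 FPKM with the WT label. The part of the myeloid markers in the Adora2a values was not tested.

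No other adenosine receptor was measured above 1 FPKM in any library. Adora1, the A1 receptor, was listed at 0 throughout. Adora2b, the low-affinity A2B receptor, had 0, 0.370 and 0.142 FPKM in WT 1, 2 and 3, and its listed value was 0 in cKO 1, 2 and 3. Adora3, the A3 receptor, had a value above 0 in WT 1 alone, at 0.401 FPKM.

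Ada (ENSMUSG00000017697), which turns adenosine into inosine, was the lowest of the 7 genes. It stood at 7.76, 16.5 and 11.8 FPKM in replicates 1, 2 and 3 labelled cKO, against 9.62, 10.4 and 11.9 FPKM in replicates 1, 2 and 3 labelled WT. Both the lowest and the highest library were labelled cKO, and the values labelled WT lay between them. The means were 12.004 ± 4.36 and 10.7 ± 1.18 FPKM (SD, n = 3 each), and the fitted log2 difference was 0.11 ± 0.271 (SE), its 95% interval reaching from -0.54 to 0.75 (limma, adjusted p = 0.978). The direction turned to -0.14 without cKO replicate 2, which was the highest library. About 47 to 139 fragments lay behind each value, the fewest of the 7 genes. Its nearest coding genes were Denr, a translation factor, and Mpv17l2 (root mean square differences of 0.047 and 0.078, with a median of 0.40).

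Dpp4 (ENSMUSG00000035000), the CD26 peptidase, stood at 56.6, 52.2 and 64.8 FPKM in replicates 1, 2 and 3 labelled cKO, against 59.6, 37.8 and 57.5 FPKM in replicates 1, 2 and 3 labelled WT. WT 2 was the low library and the other five overlapped. The means were 57.9 ± 6.42 and 51.6 ± 11.996 FPKM (SD, n = 3 each), and the fitted log2 difference was 0.18 ± 0.206 (SE), its 95% interval reaching from -0.31 to 0.68 (limma, adjusted p = 0.942). Without WT replicate 2 the difference was -0.021. An unstranded method cannot separate Dpp4 from Gm13561, a gene on the opposite strand that overlaps its exons. Gm13561 had at most 0.503 FPKM, but this value comes from the same unstranded reads and cannot give its share in Dpp4. The coding genes nearest to Dpp4 were Angptl6 and Sfn (root mean square differences of 0.041 and 0.080, with a median of 0.36), both under 5 FPKM in each library.

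P2rx7 (ENSMUSG00000029468), the ATP- and NAD-responsive channel, had the narrowest range of the 7 genes. It stood at 68.6, 64.5 and 59.5 FPKM in replicates 1, 2 and 3 labelled cKO, against 52.8, 67.9 and 57.5 FPKM in replicates 1, 2 and 3 labelled WT. The groups overlapped, and the highest library was 1.30 times the lowest. The means were 64.2 ± 4.56 and 59.4 ± 7.71 FPKM (SD, n = 3 each), and the fitted log2 difference was 0.12 ± 0.143 (SE), its 95% interval reaching from -0.23 to 0.46 (limma, adjusted p = 0.946). It was 0.036 without WT replicate 1 and 0.21 without WT replicate 2. At most 1016 to 1595 fragments lay behind each value, the length being that of the longest coding transcript as for the other genes. Aaas and Jakmip1 were the nearest coding genes (root mean square differences of 0.028 and 0.034, with a median of 0.28).

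P2rx4 (ENSMUSG00000029470), the neighbouring ATP-gated channel, stood at 44.8, 27.6 and 31.1 FPKM in replicates 1, 2 and 3 labelled cKO, against 25.4, 29.0 and 30.9 FPKM in replicates 1, 2 and 3 labelled WT. Only cKO 1 stood apart, above the other five. The means were 34.5 ± 9.08 and 28.4 ± 2.79 FPKM (SD, n = 3 each), and the fitted log2 difference was 0.24 ± 0.206 (SE), its 95% interval reaching from -0.25 to 0.74 (limma, adjusted p = 0.925). Leaving out cKO replicate 1 brought it to 0.046. The nearest coding genes were Agpat4 and Chkb, enzymes of phospholipid synthesis (root mean square differences of 0.059 and 0.076, with a median of 0.35). P2rx7 was between 1.53 and 2.34 times P2rx4 within a library, lowest in cKO 1.

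Among the other P2X channels, none reached a mean of 1 FPKM. P2rx2 and P2rx3 were listed at 0 in each library, P2rx1 and P2rx6 did not exceed 0.438 and 0.191 FPKM, and P2rx5 reached 1.28 FPKM in cKO 1. P2rx7 and P2rx4 were thus the members of their channel family with values above 2 FPKM.

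**Figure D2:**
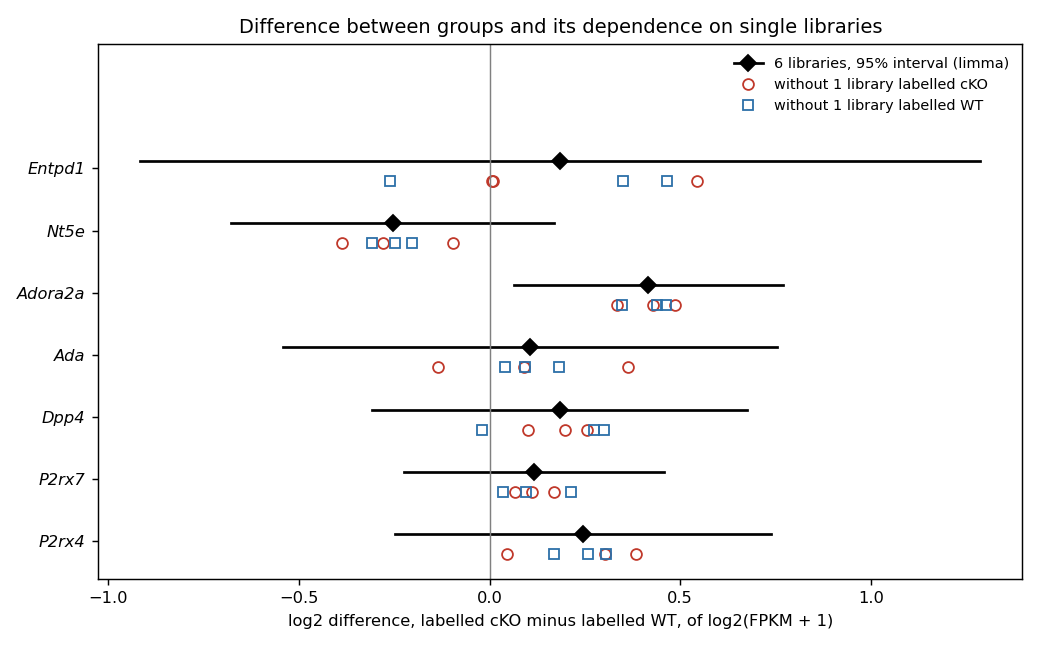
Log2 difference of log2(FPKM + 1) between libraries labelled cKO and labelled WT (horizontal axis) for each of the 7 genes, with the limma estimate over 6 libraries and its 95% interval in black and the estimates with 1 library left out as open markers. The interval of Adora2a, from 0.063 to 0.77, is the one that does not include 0 with all 6 libraries, and the open markers of Entpd1 range from -0.26 to 0.54.

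The wider pathway was read from 8 lists with 81 genes, of which 77 had a row and 49 were tested. Entpd4, Art2a, Pnp and Pde2a found no row. None of the 49 passed (limma, adjusted p), and at an unadjusted p under 0.05 there were 0, against 5.37% of all genes tested. Groups did not overlap in 1 gene higher and 2 lower, 6.12% of the 49, beside 6.96% higher, 3.75% lower and 10.7% in either direction over all genes tested. The median log2 difference was -0.05, with 19 genes above 0 and 30 below, beside a median of 0.03 and 55.0% above 0 over all genes tested.

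Of the other ectonucleotidases and NAD-consuming ectoenzymes, 8 of 13 with a row were tested, 4 above 0 and 4 below. Art2b, the ART2.2 enzyme that can gate P2X7 in mouse T cells, was the most abundant, at 73.6, 85.1 and 48.2 FPKM in replicates 1, 2 and 3 labelled cKO, against 43.7, 55.0 and 43.6 FPKM in replicates 1, 2 and 3 labelled WT. The groups overlapped, since cKO 3 lay below WT 2, and the fitted log2 difference was 0.50 ± 0.233 (SE) (limma, adjusted p = 0.925). Cd38, which consumes NAD, stood at 20.4 ± 3.69 against 15.3 ± 2.15 FPKM (SD, n = 3 each), and its fitted log2 difference was 0.39 (limma, adjusted p = 0.925). Enpp2, the lysophospholipase autotaxin, was the gene whose groups did not overlap, at 1.92 ± 0.387 against 1.09 ± 0.451 FPKM (SD, n = 3 each). Entpd5 and Entpd6, relatives of CD39 found inside the cell or secreted, stood at 16.6 ± 2.65 against 20.3 ± 4.65 and at 22.3 ± 2.87 against 26.0 ± 3.95 FPKM. The surface relatives of CD39 were scarce. Entpd2 reached 1.03 FPKM in WT 2, while Entpd3 and Entpd8 did not exceed 0.0630 and 0.573 FPKM.

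Genes of adenosine uptake and purine salvage were 12 tested of 13 with a row, 2 above 0 and 10 below, with a median log2 difference of -0.11. Over all genes tested 55.0% were above 0. None of the 12 passed, and some lay close to 0, such as Hprt at -0.034, Slc29a3 at -0.042 and Aprt at -0.047. Slc28a2, a concentrative nucleoside transporter, had groups that did not overlap, at 29.6, 24.4 and 28.4 FPKM in replicates 1, 2 and 3 labelled cKO, against 31.6, 46.0 and 32.9 FPKM in replicates 1, 2 and 3 labelled WT. Its fitted log2 difference was -0.39 ± 0.185 (SE) (limma, adjusted p = 0.925). The equilibrative transporter Slc29a1 was abundant, at 144 ± 23.6 against 141 ± 11.3 FPKM. Adk, the kinase that returns adenosine to AMP, stood at 72.6 ± 4.85 against 66.1 ± 15.5 FPKM. The AMP deaminase Ampd2 stood at 25.9 ± 4.66 against 31.4 ± 2.57 FPKM, and Adal, which resembles adenosine deaminase, at 9.02 ± 1.25 against 11.2 ± 2.30 FPKM.

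Of the ATP release channels and transporters, 5 of 7 were tested. Panx1, the pannexin channel, stood at 154 ± 14.3 against 139 ± 11.8 FPKM. Slc17a9, which loads ATP into vesicles, stood at 22.0 ± 9.49 against 28.8 ± 7.76 FPKM, with its lowest value of 12.1 FPKM in cKO 2. Lrrc8c, a subunit of the volume-regulated anion channel, stood at 30.6 ± 5.17 against 29.4 ± 3.86 FPKM. Gja1 and Panx2 were listed at 0 in each library. Among the P2Y receptors 3 of 9 were tested, and P2ry10, a lysophospholipid receptor despite its name, was the one above 5 FPKM, at 19.7 ± 1.49 against 20.0 ± 3.56 FPKM.

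The cAMP pathway downstream of the A2A receptor had 17 tested genes of 21, 11 above 0 and 6 below, beside 55.0% above 0 over all genes tested. The median log2 difference of the 17 was 0.06. Gnas, the stimulatory G protein, stood at 203 ± 8.26 against 183 ± 22.3 FPKM, and Prkar1a, a regulatory subunit of protein kinase A, at 294 ± 25.4 against 266 ± 35.7 FPKM. Akap8, which anchors protein kinase A, had groups that did not overlap, at 33.1 to 33.9 against 36.9 to 39.9 FPKM and a log2 difference of -0.19. Of 5 tested cAMP phosphodiesterases, 4 had a log2 difference above 0 and 1 below, and none passed. Pde4a, the one below 0, stood at 1.08 ± 0.515 against 2.31 ± 0.926 FPKM, and Pde4b at 39.6 ± 5.67 against 35.1 ± 3.80 FPKM. Pde3b, another cAMP phosphodiesterase, fell below the filter and was singled out after its values were seen. It stood at 1.79, 1.58 and 0.456 FPKM in replicates 1, 2 and 3 labelled cKO, against 0.0321, 0.143 and 0.0733 FPKM in replicates 1, 2 and 3 labelled WT, without overlap, and with no filter it did not pass (limma, adjusted p = 0.882). Adcy6, also below the filter, was separate in the other direction, at 0.120 to 0.190 FPKM with the cKO label against 0.246 to 0.680 FPKM. The groups overlapped for Adcy9 and Prkar2a, the remaining genes of the list below the filter. The relatives of Dpp4 with 4 tested members, Dpp7, Dpp8, Dpp9 and Prep, each had a log2 difference below 0, between -0.21 and -0.078. None of them passed (limma, adjusted p from 0.930 to 0.977), and the groups overlapped for each. For Dpp8, Dpp9 and Prep the lowest library was cKO 2, at 7.51, 20.7 and 20.8 FPKM. For Dpp7 it was cKO 3, at 15.5 FPKM. Dpp4 had 0.18, but -0.021 without WT replicate 2, so a direction opposite to its relatives is not shown.

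**Figure D3:**
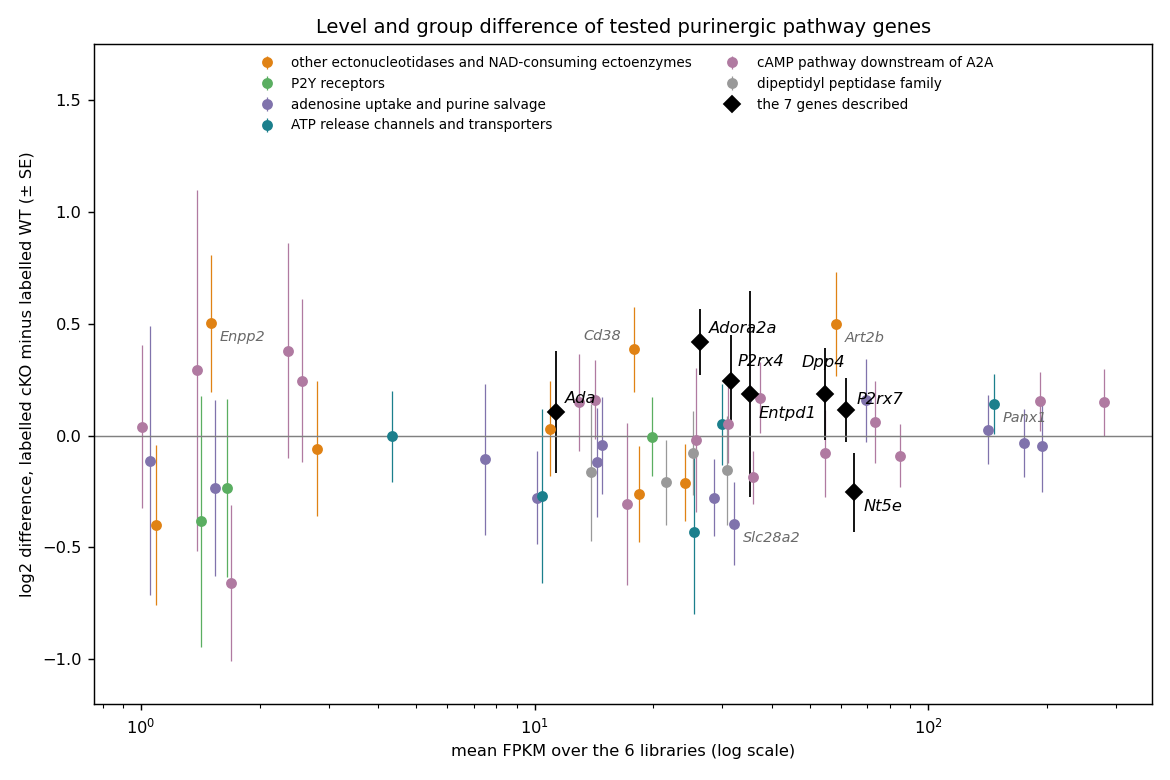
Mean FPKM over the 6 libraries (horizontal log axis) against the log2 difference between libraries labelled cKO and labelled WT with its standard error (vertical axis), for the 7 genes (black diamonds) and the 49 other tested genes of the pathway, coloured by list. Art2b at 0.50 and Adora2a at 0.42 lie highest and Slc17a9 at -0.43 and Slc28a2 at -0.39 lowest among the genes above 10 FPKM, and no gene shown passed the test.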

How the data were processed

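Treg were enriched from spleen as CD4+ T cells and sorted, and libraries were made with SmartSeq2, an unstranded method, then sequenced by Illumina HiSeq, per the labels' protocols. The submitters' processing notes name HISAT2, cutadapt, FastQC and the builds mm9 and NCBIM37, without versions. The authors deposited FPKM values for each library, made with cuffnorm per the file's name. Their annotation and filters are not stated in what was read here. Treg from Bach2 reporter mice, which the design text of the series describes, were not analysed here.

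Gene identifiers were matched to symbols through GENCODE M21, and 31840 of 36811 matched. Of 1181 low genes with a single transcript, 65.8% had values at whole steps within a tolerance of 0.02, and 152 transcripts of at least 2000 bases set the scale to fragments. Fragment numbers take the longest annotated coding transcript and are estimates. Counts were not recovered for most genes, so no count test was run.

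limma 3.58.1 in R 4.3.3 was fitted to log2(FPKM + 1) of the 11979 genes averaging 1 FPKM or more, with a variance trend, no block and Benjamini-Hochberg adjustment over all of them. Low genes change by more than a difference on this scale shows. In simulated data for this comparison with 11979 genes, 200 of them changed, 25.7% of 2-fold and 83.8% of 4-fold changes were recovered. The changed genes were drawn from the more highly expressed ones only, and the noise was independent between libraries. Changes under 2-fold were not simulated, so these rates do not hold for low genes or smaller changes. Python 3.11.15 made tables and figures. Members, lists and tests were chosen with earlier results of these data known. The named genes were the 7 members, up to 4 genes per list by smallest p and up to 4 by level, not all of them printed, and the 2 coding genes nearest to each member. One marker gene is not reported here.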

Additional observations from a re-analysis of the deposited data

How the results depend on the processing

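In the 16 alternatives (a pseudocount of 0.1 or 5, a minimum of 5 FPKM or none, 3 scalings, no variance trend, library weights, the block by replicate number, and leaving out each library), none of the 7 genes passed. The 3 genes passing over the whole table became 1 with the replicate block, and numbered 5 to 15 when a library was left out. Libraries scaled to equal sums moved the median difference of all genes by 0.14, and 770 genes were then higher and 96 lower at an unadjusted p under 0.05, against 430 and 213. Relative to that median Adora2a differed by 0.39 and Nt5e by -0.27, against 0.38 and -0.29. Adora2a, Nt5e, P2rx7 and P2rx4 kept their direction in the 16 alternatives. Without 1 library, Entpd1 ranged from -0.26 to 0.54, Ada from -0.14 to 0.36 and Dpp4 from -0.021 to 0.30, and the cause was not tested. Libraries of equal replicate number showed no positive correlation of their deviations from the group mean (-0.060, -0.18 and -0.017). Such deviations, centred within groups of 3 libraries, cannot show whether libraries were prepared together. With the replicate block Adora2a had an adjusted p of 1 at the same log2 difference of 0.42. With 47 to 139 fragments per library, Ada has the widest counting error of the 7 genes.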
